A study of Mus musculus with 8 samples.

Results

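The conjugating detoxification enzymes join a small polar group to a foreign or internally made compound so that it can leave the cell. The families examined were the glutathione transferases, the UDP-glucuronosyltransferases and the sulfotransferases, as genes whose symbol begins with Gst and a class letter, Mgst, Ugt or Sult followed by a digit. The array carried 59 such genes, named by 81 probes, and 41 of them were measured, among 25404 features measured in all, 15114 of which had a symbol. A gene counted as measured when 4 or more of the 8 arrays read a probe of it well above background, and its brightest such probe over both groups stood for it. Detection and brightness over both groups thus chose the members. A gene detected only on the control arrays could also enter, as Gsta4 did. The family itself was picked with earlier results of these data known, so every count over its members is a description.

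Glutathione transferases attach glutathione to electrophiles, UDP-glucuronosyltransferases attach glucuronic acid from UDP-glucuronate in the endoplasmic reticulum, and cytosolic sulfotransferases attach a sulfonate group from the donor PAPS. In the intestine these enzymes meet dietary compounds and drugs at the first epithelial layer, and many of them are more abundant in mature absorptive enterocytes than in crypt cells. Xenobiotic sensors such as the aryl hydrocarbon receptor and the stress factor NRF2 are known inducers of members of these families, and β-naphthoflavone is a classical activator of that receptor.

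The arrays held RNA of intestinal stem cells sorted for high Lgr5. There were 4 samples labelled Irf2_AhcKO, carrying Irf2fl/fl, AhCre and Lgr5-EGFP-Ires-CreERT2, and 4 control samples, carrying Irf2fl/fl and Lgr5-EGFP-Ires-CreERT2 without AhCre. Both groups thus carried floxed Irf2 and the Lgr5 allele with its own tamoxifen-dependent recombinase, both received β-naphthoflavone on 5 consecutive days, and both were taken 1 month later. IRF2, a member of the interferon regulatory factor family, binds interferon response elements in DNA, and AhCre is a recombinase under a xenobiotic-inducible promoter. The inducing agent was given to both groups, so its effect on the enzymes studied here was not tested. How many of the stem cells had recombined was not analysed here. Ah-Cre is also mentioned in the scan names of control replicates 3 and 4. The design text names both 4 mice per genotype and 2 biological replicates, so the p-values cover only the spread among these samples, which may be partly technical.

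Levels are log2 processed signal relative to each array's 75th percentile, and a difference is the Irf2_AhcKO mean minus the control mean from limma with the slide as a term. Differences were called at a Benjamini-Hochberg adjusted p below 0.05 over all 25404 features. Irf2 itself read 1.12, 1.1, 0.70 and 0.73 on the Irf2_AhcKO arrays and 0.99, 0.55, 0.37 and 0.64 on the control arrays. The groups overlapped, and the probe was not lower on the arrays labelled Irf2_AhcKO (difference 0.27, SE 0.12, limma adjusted p = 0.429). The position of that probe relative to the floxed exon is unknown, so it does not check the labels, and the directions below are between arrays so labelled. Between 61.4% and 69.8% of spots per array were well above background, no spot was saturated, and the number of arrays limits the precision. Each slide held 2 arrays of each group, replicates 1 and 2 being on slide 1 and the others on slide 2. Of 18 stem cell markers 17 were well above background on all 8 arrays, Lgr5, Ascl2 and Smoc2 among them, and Olfm4 was not measured.

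No conjugating enzyme was called, while 25 features were called over the whole array (0.0984%), 14 of them higher (0.0551%) and 11 lower (0.0433%) on the Irf2_AhcKO arrays. Most members nevertheless read lower on the Irf2_AhcKO arrays. A negative difference was found for 32 of the 41 members and a positive one for 9, and 50.5% of all features were negative. The median difference of the members was -0.27, with quartiles of -0.52 and -0.01, and that of all features was 0.00. At an unadjusted limma p below 0.05, 19 members were lower and 0 higher, against 5.75% of all features lower and 5.98% higher. Without Gsta4, which was well above background on control arrays only, 31 of 40 members were negative and 18 were lower at that p. The 4 Irf2_AhcKO arrays lay entirely below the 4 control arrays for 9 members, where 2.11% of all features did so, and entirely above them for 0 members, where 1.74% did. These 9 were Gstt1, Gstt3, Gsta2, Gsto1, Mgst2, Ugt1a6b, Ugt2a3, Ugt2b34 and Sult1b1.

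**Figure D1:**
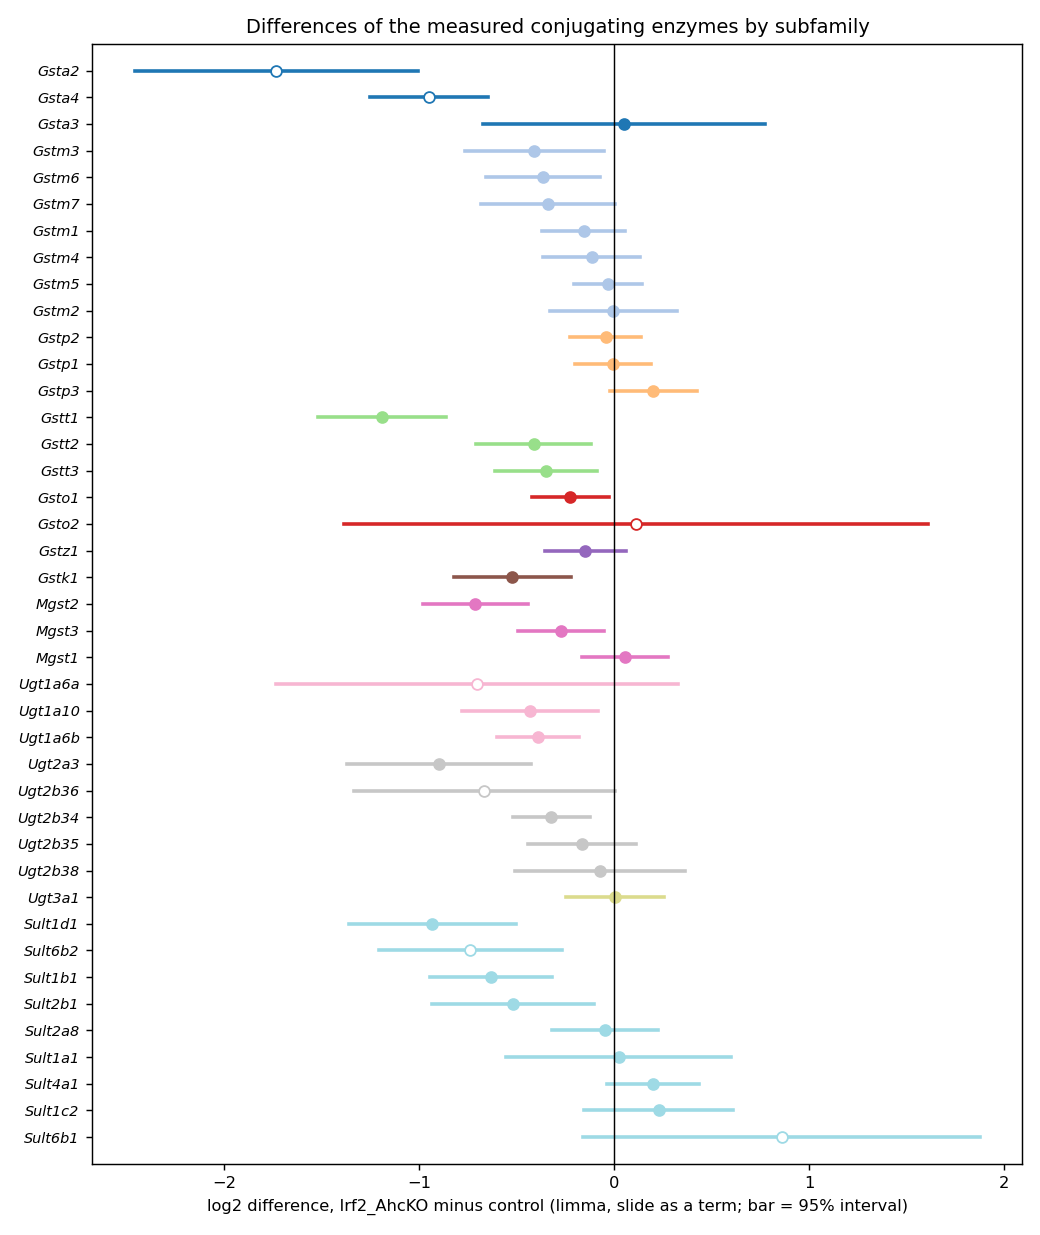
Log2 difference (Irf2_AhcKO minus control, x axis) of each of the 41 measured enzymes, grouped by subfamily down the y axis, with bars for the 95% limma interval. Filled points mark the 34 enzymes well above background on all 8 arrays and open points the others. Gsta2 lies farthest to the left at -1.73, the Gstt, Gstm, Ugt1 and Ugt2 points are all at or left of 0, and the Gstp points lie near 0.

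The theta-class transferases, which act on small halogenated compounds among others, held the enzyme nearest to the threshold. Gstt1 read 0.66, 0.45, 1.08 and 0.88 on the Irf2_AhcKO arrays and 2.14, 1.86, 1.87 and 1.96 on the control arrays. Every Irf2_AhcKO array lay below every control array. Gstt1 averaged 0.77 ± 0.28 on the Irf2_AhcKO arrays and 1.96 ± 0.13 on the control arrays (SD, n = 4 each), a difference of -1.19 with an SE of 0.14 and a limma adjusted p of 0.0502, just above the threshold. The signal ratio was 0.438, with a 95% interval of 0.349 to 0.55. With normexp background correction Gstt1 passed (difference -1.11, limma adjusted p = 0.0066), as it did among probes well above background on all 8 arrays (limma adjusted p = 0.0265). It did not pass in the other alternatives, such as quantile scaling (limma adjusted p = 0.062) and no filter (limma adjusted p = 0.126). Its neighbour Gstt2 read -0.17, -0.59, 0.04 and -0.11 on the Irf2_AhcKO arrays and 0.17, -0.15, 0.31 and 0.50 on the control arrays. The groups overlapped, and the difference was -0.41 (SE 0.13, limma adjusted p = 0.329). Gstt3 had a difference of -0.35 (limma adjusted p = 0.337) without overlap, and Gstt4 was not measured.

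The window around the start of Gstt1 is shown because it was 1 of 3 members' windows with an interferon-type element, searched as GAAA, any 2 bases and GAAA again. Windows run from 250 bases before to 50 after a gene's start (RefSeq, GRCm38.p6), and this one is chr10:75797682-75797981 on the minus strand. Capitals mark the match, which lies on the opposite strand and begins at -185.
Gstt1: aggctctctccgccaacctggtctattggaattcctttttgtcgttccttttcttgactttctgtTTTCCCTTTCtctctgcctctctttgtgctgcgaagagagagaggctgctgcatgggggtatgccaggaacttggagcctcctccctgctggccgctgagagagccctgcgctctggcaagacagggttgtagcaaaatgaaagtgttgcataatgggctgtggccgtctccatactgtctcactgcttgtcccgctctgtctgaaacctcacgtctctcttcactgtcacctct
Over the 49 windows of 37 measured members, 3 (6.12%) held this element on either strand, and 3.44% of all 32851 windows did. A match is a run of letters and not a shown binding site.

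The alpha class, abundant in intestine and liver, held the largest difference of all members and also one of the smallest. Gsta2 read -3.69, -3.24, -2.94 and -4.35 on the Irf2_AhcKO arrays and -1.64, -1.73, -1.65 and -2.26 on the control arrays. All Irf2_AhcKO arrays lay below all control arrays, and 3 of the 4 Irf2_AhcKO arrays and all 4 control arrays were well above background. The group means were -3.55 ± 0.62 on the Irf2_AhcKO arrays and -1.82 ± 0.30 on the control arrays (SD, n = 4 each), a difference of -1.73 (SE 0.31, limma adjusted p = 0.133). With normexp the difference was -0.68 and passed (limma adjusted p = 0.0465), so the size for this dim probe depends on how background is treated.

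Gsta4, which conjugates hydroxynonenal from lipid peroxidation, read -4.74, -4.33, -5.00 and -5.01 on the Irf2_AhcKO arrays and -3.48, -3.48, -4.35 and -3.97 on the control arrays. It was not well above background on any Irf2_AhcKO array and was so on all 4 control arrays, so it entered the measured set through the control group. Its level on the Irf2_AhcKO arrays is therefore only bounded, and on this scale the bound was 1.51-fold lower than the control mean. That bound sets the control mean against the lowest signal well above background on each Irf2_AhcKO array. The probe's own signal was used where that was higher, and the bound carries no interval. The fitted difference was -0.95 (limma adjusted p = 0.0768). With normexp it was -0.13 (limma adjusted p = 0.347), smaller than the bound, so the bound depends on how background is treated. Replicate 2 of the Irf2_AhcKO group and control replicate 3 overlapped by a narrow margin. Gsta3, which in the mouse conjugates aflatoxin epoxide, had a difference of 0.05 with a 95% interval of -0.67 to 0.78.

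The Gsta2 window (chr9:78347096-78347395, minus strand) is shown for its match to the core of the xenobiotic response element, GCGTG, to which the aryl hydrocarbon receptor binds. Capitals mark the match, which begins at -7.
Gsta2: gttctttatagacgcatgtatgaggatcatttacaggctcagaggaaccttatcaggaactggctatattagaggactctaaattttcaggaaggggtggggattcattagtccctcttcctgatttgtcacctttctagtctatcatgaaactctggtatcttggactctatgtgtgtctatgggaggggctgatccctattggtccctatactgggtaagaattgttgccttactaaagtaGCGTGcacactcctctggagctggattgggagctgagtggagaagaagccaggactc
That core was found on either strand in 11 of the 49 members' windows (22.4%) and in 32.4% of all windows. The core of the antioxidant response element used by NRF2, TGACNNNGC, was found in 4 (8.16%) and in 12.4% of all windows, and those 4 belonged to Gsta3, Gstm5, Gstm7 and Mgst1.

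The membrane-bound transferases of the Mgst family sit in the endoplasmic reticulum. Mgst2, which can also make leukotriene C, read 1.51, 1.79, 1.32 and 1.43 on the Irf2_AhcKO arrays and 2.42, 2.16, 2.29 and 2.02 on the control arrays. The groups did not overlap. The means were 1.51 ± 0.20 on the Irf2_AhcKO arrays and 2.22 ± 0.17 on the control arrays (SD, n = 4 each), a difference of -0.71 (SE 0.11, limma adjusted p = 0.112) and a signal ratio of 0.611 (95% interval 0.507 to 0.735). Mgst3 had a difference of -0.27 and Mgst1 of 0.06. The Mgst2 window (chr3:51660929-51661228, plus strand) is shown as the one of the 4 whole windows printed without a match to any of the 3 motifs.
Mgst2: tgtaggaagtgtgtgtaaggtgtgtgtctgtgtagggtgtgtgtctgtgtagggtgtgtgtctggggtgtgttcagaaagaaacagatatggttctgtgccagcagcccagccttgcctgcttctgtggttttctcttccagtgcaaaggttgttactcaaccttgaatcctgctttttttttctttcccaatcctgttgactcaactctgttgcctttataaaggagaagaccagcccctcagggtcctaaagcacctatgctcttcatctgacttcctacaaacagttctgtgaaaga

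All 7 mu-class genes, which lie close together on chromosome 3, had negative differences on the probes that stood for them, with a median of -0.16. On these probes none had groups apart. The member of smallest p was Gstm6, at -0.25, 0.09, -0.40 and -0.39 on the Irf2_AhcKO arrays and 0.33, -0.01, -0.01 and 0.19 on the control arrays. Its groups overlapped through Irf2_AhcKO replicate 2, and its difference was -0.36 (SE 0.12, limma adjusted p = 0.361). Its 3 kept probes gave differences between -0.47 and -0.36, and the groups lay apart on the 2 that were not used. Gstm3 was at -0.41, Gstm7 at -0.34, Gstm1 at -0.16, Gstm4 at -0.11, Gstm5 at -0.03 and Gstm2 at 0.00. A further kept probe of Gstm7 was at -1.05 with groups apart. The other kept probes of Gstm2 were at 0.03 and -0.05, and that of Gstm4 was at 0.03, so the shared sign depends on the probes used. Since the mu-class genes are near copies their probes may read each other's transcripts. The other 2 members with the interferon-type element were Gstm6, where it begins at position 1 from the start, and Sult2a8, where it begins at -125. A stretch of 60 bases around each is shown with the match in capitals, from chr3:107953432-107953491 and chr7:14446678-14446737, both on the minus strand.
Gstm6: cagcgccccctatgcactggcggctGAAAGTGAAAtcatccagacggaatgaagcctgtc
Sult2a8: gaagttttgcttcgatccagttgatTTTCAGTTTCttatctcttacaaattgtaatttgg

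The pi class had small differences between the groups. Gstp1 had a difference of -0.01, with a 95% interval of -0.20 to 0.19, and Gstp2 of -0.04, with an interval of -0.23 to 0.14. Gstp1 and Gstp2 are near copies, so their probes may not separate them. Gstp3 read -0.84, -0.90, -1.56 and -1.19 on the Irf2_AhcKO arrays and -1.08, -1.04, -1.57 and -1.61 on the control arrays. The groups overlapped, both groups read lower on slide 2, and the difference was 0.20 (SE 0.10, limma adjusted p = 0.457).

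Gsto1, an omega-class enzyme that reduces dehydroascorbate, read 3.13, 2.96, 2.84 and 3.08 on the Irf2_AhcKO arrays and 3.31, 3.22, 3.17 and 3.21 on the control arrays. The groups lay apart by a small step, and the difference was -0.22 (SE 0.08, limma adjusted p = 0.391). Gsto2 had differences of -0.93 on slide 1 and 1.16 on slide 2 and was well above background on 1 Irf2_AhcKO and 3 control arrays. Gstk1, the kappa-class enzyme of mitochondria and peroxisomes, read -1.35, -1.47, -1.25 and -0.92 on the Irf2_AhcKO arrays and -0.63, -1.09, -0.53 and -0.65 on the control arrays. Irf2_AhcKO replicate 4 lay above control replicate 2, and the difference was -0.52 (SE 0.13, limma adjusted p = 0.248). Gstz1, which acts in tyrosine breakdown as maleylacetoacetate isomerase, had a difference of -0.15.

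**Figure D2:**
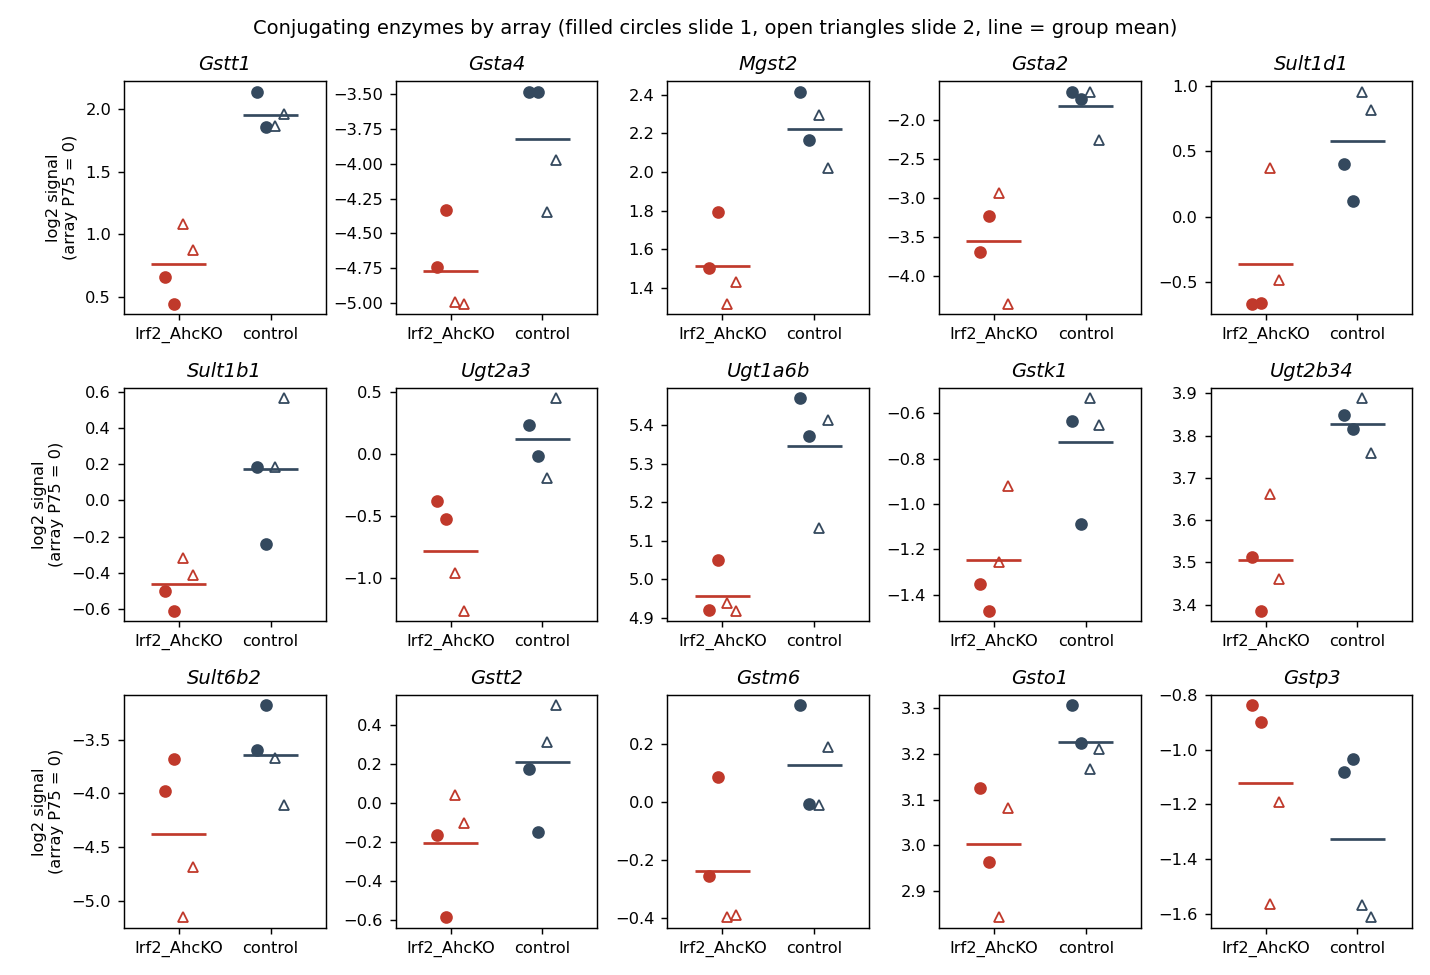
Log2 signal with the array's 75th percentile at 0 (y axis, with its own range in each panel) of 15 enzymes on the Irf2_AhcKO and control arrays. Points are single arrays, filled circles for slide 1 and open triangles for slide 2, and lines are group means. The groups lie apart for Gstt1, Mgst2, Gsta2, Sult1b1, Ugt2a3, Ugt1a6b, Ugt2b34 and Gsto1 and overlap in the other panels.

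Among the UDP-glucuronosyltransferases 9 of 15 genes on the array were measured, with a median of -0.39. Of these 8 had a negative difference, against 50.5% of all features, and 3 had groups apart in the lower direction, against 2.11%. The Ugt1 genes are alternative first exons joined to shared last exons, so a probe in the shared part reads them together. Ugt1a6b, a form of the enzyme that conjugates simple phenols, read 4.92, 5.05, 4.94 and 4.92 on the Irf2_AhcKO arrays and 5.47, 5.37, 5.13 and 5.41 on the control arrays. The groups did not overlap, and the difference was -0.39 (SE 0.09, limma adjusted p = 0.216). The other kept probe of Ugt1a6b had a difference of 0.05 and was far dimmer, so its probes disagreed in level and in difference. It averaged -1.26 on the Irf2_AhcKO and -1.30 on the control arrays, where the probe used averaged 4.96 and 5.35. Which transcripts each probe reads was not tested. Ugt1a10 had a difference of -0.43, and of -0.18 on its other kept probe. Ugt1a6a had one of -0.70 and was well above background on 2 Irf2_AhcKO and 4 control arrays.

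All 5 measured Ugt2 genes had negative differences. Ugt2a3 read -0.38, -0.52, -0.96 and -1.26 on the Irf2_AhcKO arrays and 0.23, -0.01, -0.19 and 0.45 on the control arrays. The groups did not overlap, and the difference was -0.90 (SE 0.20, limma adjusted p = 0.205). The slides gave -0.56 (slide 1) and -1.24 (slide 2). Ugt2b34 read 3.51, 3.39, 3.66 and 3.46 on the Irf2_AhcKO arrays and 3.85, 3.82, 3.89 and 3.76 on the control arrays. Its groups also lay apart, at a smaller difference of -0.32 (SE 0.08, limma adjusted p = 0.282). Ugt2b36 had a difference of -0.67, Ugt2b35 of -0.16 and Ugt2b38 of -0.07. Ugt3a1 had a difference of 0.01.

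The sulfotransferases were mixed in sign, with 5 negative and 4 positive differences among the 9 measured of 20 genes and a median of -0.05. At an unadjusted limma p below 0.05, 4 were lower and 0 higher, against 5.75% and 5.98% of all features. Sult1d1, which in the mouse sulfonates catecholamines, read -0.66, -0.65, 0.37 and -0.48 on the Irf2_AhcKO arrays and 0.40, 0.12, 0.95 and 0.82 on the control arrays. Irf2_AhcKO replicate 3 stood above control replicate 2, but on each slide the Irf2_AhcKO arrays lay below the control arrays. The difference was -0.93 (SE 0.18, limma adjusted p = 0.162), it was -0.92 on slide 1 and -0.94 on slide 2, and with normexp it was -0.72 and passed (limma adjusted p = 0.0426). Another kept probe of Sult1d1 gave -1.26 with groups apart. The Sult1d1 window (chr5:87568957-87569256, minus strand) is shown for its match to GCGTG, read on the opposite strand from -47 and marked in capitals.
Sult1d1: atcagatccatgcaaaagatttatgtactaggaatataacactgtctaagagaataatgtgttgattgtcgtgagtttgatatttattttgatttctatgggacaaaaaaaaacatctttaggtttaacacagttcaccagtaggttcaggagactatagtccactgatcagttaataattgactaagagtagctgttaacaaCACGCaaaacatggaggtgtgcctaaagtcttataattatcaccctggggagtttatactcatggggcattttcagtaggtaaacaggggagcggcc

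Sult1b1, which sulfonates phenols and thyroid hormones, read -0.50, -0.61, -0.32 and -0.41 on the Irf2_AhcKO arrays and 0.18, -0.24, 0.18 and 0.56 on the control arrays. Its groups did not overlap, and the difference was -0.63 (SE 0.13, limma adjusted p = 0.191). Sult6b2 read -3.98, -3.68, -5.15 and -4.69 on the Irf2_AhcKO arrays and -3.60, -3.18, -3.67 and -4.11 on the control arrays. It was well above background on only 2 Irf2_AhcKO and 3 control arrays, its groups overlapped, and its difference was -0.74 (SE 0.20, limma adjusted p = 0.29) and -0.06 with normexp. Sult2b1, which sulfonates cholesterol, had a difference of -0.52. On the other side, Sult6b1 was at 0.86 (1.49 on slide 1 and 0.23 on slide 2), Sult1c2 at 0.23, Sult4a1 at 0.20 and Sult1a1, the main phenol sulfotransferase, at 0.02, and Sult2a8 was at -0.05.

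Members were put in a neighbourhood when at most 10 other genes lay between them. In gene order, the longest was the Ugt2 and Sult1 neighbourhood of chromosome 5. Of its 12 genes on the array 7 were measured, with a median of -0.63. All 7 had negative differences, against 50.5% of all features, and 3 had groups apart in the lower direction, against 2.11%. The 7 Gstm genes had a median of -0.16, the 3 measured Gstt genes of chromosome 10 one of -0.41, the 3 Ugt1a genes of chromosome 1 one of -0.43 and the 3 Gstp genes of chromosome 19 one of -0.01. Of the 7 Sult2a genes of chromosome 7 only Sult2a8 was measured.

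**Figure D3:**
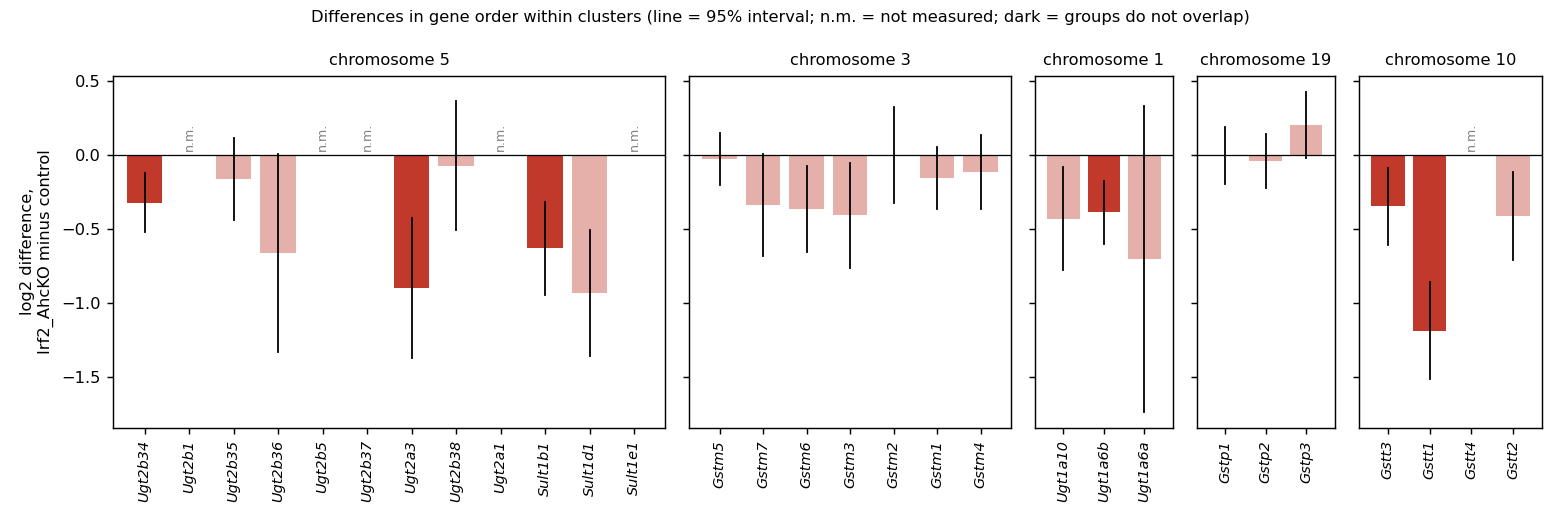
Log2 difference (Irf2_AhcKO minus control, y axis) of the members in gene order within the 5 neighbourhoods that hold at least 3 measured members, with lines for the 95% limma interval. Dark bars mark enzymes whose groups do not overlap, pale bars the others, and n.m. a gene that was not measured. The chromosome 5 bars all point down, and the chromosome 19 bars stay near 0.

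Most members had the same sign on both slides. The members' median was -0.25 on slide 1 and -0.26 on slide 2. Of the 41 members 28 were negative on both slides and 3 positive on both. Over all 25404 features 8048 were negative on both and 7761 positive on both, so most features also kept their sign. The slides themselves differed in level for 13 members, 5 higher and 8 lower on slide 2, where 35.5% of all features differed. Ugt3a1 was at -0.94 and Gstp1 at -0.71 on slide 2 relative to slide 1, and Sult1a1 at 0.77 and Ugt1a10 at 0.75.

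**Figure D4:**
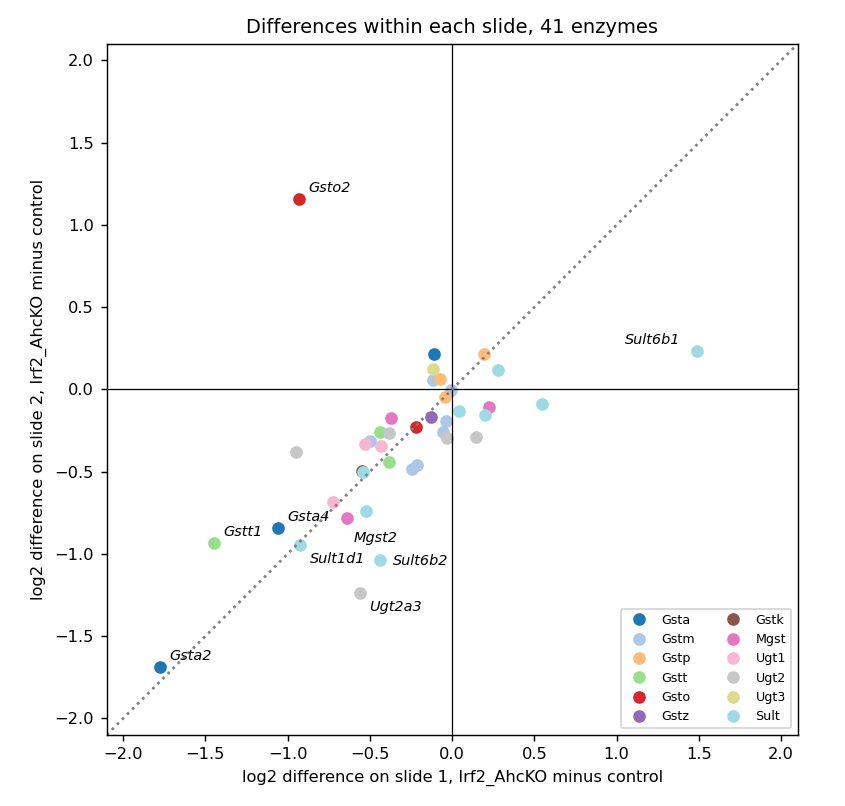
Log2 difference (Irf2_AhcKO minus control) of each of the 41 enzymes on slide 1 (x axis) and on slide 2 (y axis), coloured by subfamily, with a dotted line where both are equal. Gsta2, Gstt1, Gsta4, Sult1d1 and Mgst2 lie at the lower left on both slides, and Gsto2 is the point at -0.93 on slide 1 and 1.16 on slide 2.

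Of the 41 members, 34 were well above background on all 8 arrays, and these had a median of -0.19, with 27 negative. At the edge of the measured set, Gsta4 and Gsto2 had 4 arrays above background and Sult6b1 and Sult6b2 had 5. Just outside it, Ugt2a1, Sult1c1 and Sult2a1 had 1 control array each and Sult2a6 had 1 Irf2_AhcKO array. The other 14 unmeasured genes had 0. Of the 16 members with several kept probes, the probes gave the same sign in 9 and different signs in 7.

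Averaged over the 41 members, the level lay between 0.07 and 0.14 on the Irf2_AhcKO arrays and between 0.35 and 0.46 on the control arrays, without overlap. Enterocyte markers also had mostly negative differences, and so had several of the other marker lists given below. Of 22 markers 21 were measured, Slc15a1 not, 15 had a negative and 6 a positive difference, the median was -0.18, and 0 were called. Their mean lay between 0.01 and 0.32 on the Irf2_AhcKO arrays and between 0.36 and 0.81 on the control arrays. Sis, the sucrase of the brush border, read 10.42 on control replicate 4, between -2.62 and -1.57 on the Irf2_AhcKO arrays and from -1.74 to -0.79 on control replicates 1 to 3. Without Sis the mean lay between 0.14 and 0.41 on the Irf2_AhcKO arrays and between 0.33 and 0.72 on the control arrays, and the ranges overlapped. The summed relative signal without Sis lay between 104.5 and 123 on the Irf2_AhcKO arrays and between 133 and 153 on the control arrays. At an unadjusted limma p below 0.05, 8 markers were lower and 2 higher, against 5.75% and 5.98% of all features. The groups lay apart for 4 in the lower and 2 in the higher direction, against 2.11% and 1.74%. Fabp2 and Rbp2, which carry fatty acids and retinol, had differences of -0.50 and -0.88, both with groups apart. Fabp1 was at -0.59, also with groups apart. Brush border genes went both ways. Mgam and Anpep were at 0.29 and 0.33, with the Irf2_AhcKO arrays above the control arrays. Alpi was at -0.79 with the Irf2_AhcKO arrays below the control arrays, Lct at -1.10 and Treh at -0.36. The glucose carrier Slc5a1 was at 0.38. The part of enterocyte RNA in the enzymes' differences was not tested, and in sorted bulk samples fewer cells of a type and less RNA per cell cannot be told apart.

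**Figure D5:**
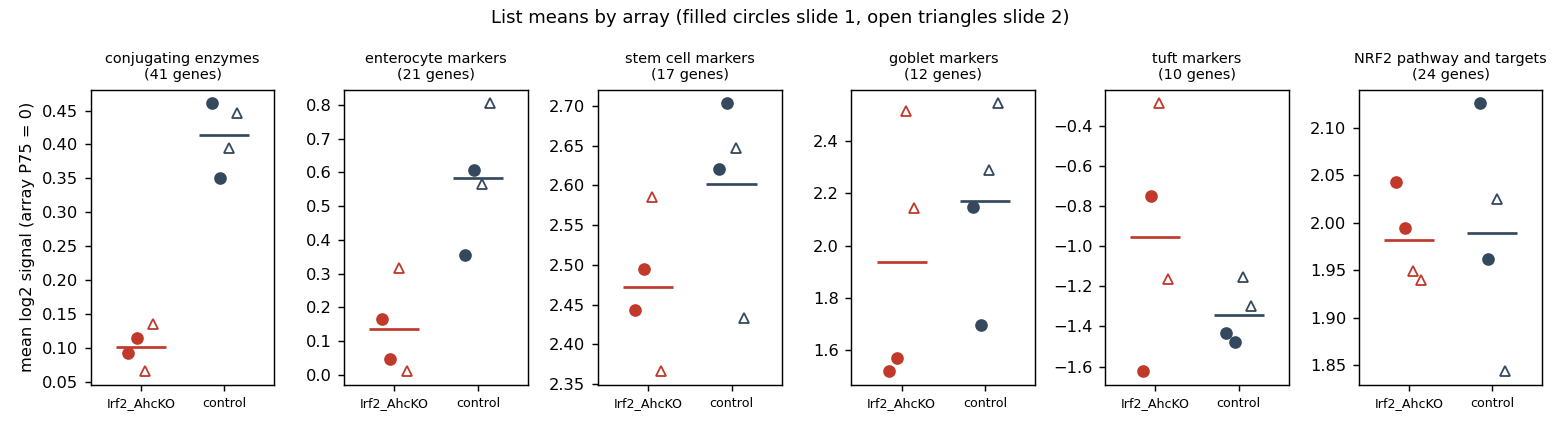
Mean log2 signal with the array's 75th percentile at 0 (y axis, with its own range in each panel) of the conjugating enzymes and of 5 other gene lists on the Irf2_AhcKO and control arrays. Points are single arrays, filled circles for slide 1 and open triangles for slide 2, and lines are group means. The groups lie apart for the conjugating enzymes (0.07 to 0.14 on the Irf2_AhcKO arrays, 0.35 to 0.46 on the control arrays) and for the enterocyte markers, which overlap when Sis is left out, and overlap for the other 4 lists plotted.

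Stem cell markers averaged between 2.37 and 2.59 on the Irf2_AhcKO arrays and between 2.43 and 2.70 on the control arrays, with a median difference of -0.05. Of 17 measured, 12 had a negative and 5 a positive difference. At an unadjusted limma p below 0.05, 3 were lower and 0 higher, against 5.75% and 5.98% of all features. Gkn3 was at -0.64 and Scn2b at -0.39. The other cell types' lists had median differences of 0.06 for Paneth cells, -0.18 for goblet cells and 0.17 for enteroendocrine cells. The medians were 0.36 for tuft cells, 0.14 for leukocytes and -0.02 for mesenchymal and endothelial cells. Red blood cells had 0.08 and epithelial markers at large -0.06, with 0 called in each list. Negative differences were found for 11 of 12 goblet markers, 6 of 8 epithelial markers at large and 5 of 7 mesenchymal and endothelial markers. They were found for 2 of 7 Paneth, 5 of 12 enteroendocrine, 2 of 10 tuft, 5 of 14 leukocyte and 0 of 3 red blood cell markers.

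The genes that serve conjugation had differences of both signs. Of 101 measured related genes 0 were called, and their median difference was -0.01. At an unadjusted limma p below 0.05, 11 were lower and 4 higher, against 5.75% and 5.98% of all features. Glutathione supply and recycling was measured in 17 of 20 genes with a median of 0.00 (Gsr, glutathione reductase, at 0.25 and Ggt6 at -0.23). The NRF2 pathway was measured in 24 of 26 genes with a median of 0.00, while Nfe2l2, which encodes NRF2, had a difference of -0.44 (limma adjusted p = 0.358) and its partner Mafg one of 0.22. Supply of UDP-glucuronate and PAPS was measured in 12 of 14 genes with a median of 0.06 (the sulfate carrier Slc26a2 at 0.51 and Slc35b3 at -0.15).

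Enzymes that split conjugates were measured in 8 of 9 genes with a median of -0.15. Their mean also lay apart, between -1.89 and -1.63 on the Irf2_AhcKO arrays and between -1.53 and -1.22 on the control arrays. Of these 8 genes 5 had a negative and 3 a positive difference. The quartiles were -0.93 and 0.05, so a few large differences weigh heavily in that mean. Arsb, a lysosomal arylsulfatase, had a difference of -1.40 with groups apart (limma adjusted p = 0.162) and Arsa one of -0.88. Other conjugating or linked enzymes were measured in 17 of 21 genes with a median of -0.13 (Ephx1, microsomal epoxide hydrolase, at -0.41 and Acsm3 at -0.21). Xenobiotic regulators were measured in 16 of 17 genes with a median of -0.11, Ppara, a fatty acid sensor, being at -0.40. Transporters of conjugates were measured in 14 of 15 genes with a median of 0.05 (the uptake carrier Slco2b1 at -0.48 and the efflux pump Abcg2 at -0.34).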

How the data were processed

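RNA of 4 Irf2_AhcKO and 4 control samples was measured on Agilent 1-colour arrays. Per the labels' protocols, 20 ng of total RNA was amplified and labelled with Cy3. Per the submitters' processing notes, Agilent Feature Extraction 11.5.1.1 was used, and the deposited scanner files give a background-subtracted intensity for each spot, with the authors' series table holding the same intensity times 1 constant per array (between 6.41 and 6.90). The deposited intensity was put on a log2 scale here, each array's 75th percentile was subtracted and spots of a probe were averaged. Probes were named through their accessions and RefSeq (28331 of 55681 probes), and no coordinates of the array's own build are printed. The comparison used limma 3.58.1 under R 4.3.3 (two-sided, slide as a term, Benjamini-Hochberg adjustment over 25404 features), tested on simulated data. The members, lists and motifs were chosen with earlier results of these data known.

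Values on all arrays are given for the 12 members of smallest unadjusted p and for the member of smallest p in each subfamily with 2 or more measured members. Up to 2 genes by p are named from each other list, with exceptions that were named after their values were seen. These are stem cell markers, Sis, Mgam, Anpep, Slc5a1, Slc15a1, Fabp1, Alpi, Lct and Treh, and the other probes and unmeasured genes. Deviations from the group means were correlated between arrays of the same number (r = 0.46, 0.49, 0.52 and 0.53 across genes). The rule used would make the numbers pairs. Arrays of the same number also share a slide, so the rule cannot separate pairing from the slide. Once slide means were removed too, these correlations were 0.05 on slide 1 and 0.21 on slide 2. The alternatives included normexp (offset 50), quantile and median scaling, the deposited table, other filters and probe rules, no slide term, single slides, the replicate block and leaving out each array. The normexp alternative had been planned on mean signals, which the files do not hold, and used median signals.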

Additional observations from a re-analysis of the deposited data

Results flagged for a closer look

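Of the 82 sets of 4 arrays examined (41 members in 2 groups), 3 held an array far from the other 3 by Dixon's criterion, a rate that chance alone gives in about 1 in 20 sets. Gsta2 read -2.26 on control replicate 4, where the other control arrays read -1.73 to -1.64. Mgst1 read 3.19 on Irf2_AhcKO replicate 3, where the other Irf2_AhcKO arrays read 3.02 to 3.05. Ugt1a6b read 5.05 on Irf2_AhcKO replicate 2, where the other Irf2_AhcKO arrays read 4.92 to 4.94.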

How the results depend on the processing

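The members' median stayed negative under every alternative run. It was -0.16 with normexp, -0.19 for probes well above background on all 8 arrays and -0.15 with no filter, where all 59 genes entered. Leaving out each array in turn gave medians between -0.34 and -0.23, the lowest without Irf2_AhcKO replicate 3. Without Gsta4, chosen as an alternative after seeing the data, it was -0.25. Calls among members were 3 with normexp (Gstt1, Gsta2 and Sult1d1), 1 with the filter on all 8 arrays (Gstt1) and 0 in the other alternatives, also with every kept probe as its own feature, another alternative chosen after seeing the data. Over its alternatives Gstt1 had limma adjusted p between 0.0066 and 0.661. Normexp made the difference over 1.5 times smaller in 14 of the 41 members, dim ones such as Gsta4 among them.

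Calls over all features were 25 in the main comparison, 133 with normexp, 46 with the filter on all 8 arrays and 7 with no filter. They were 0 within slide 1 and 0 within slide 2, with 2539 and 1337 features at an unadjusted limma p below 0.05. With the replicate block, which pairs same-numbered arrays, calls over all features were 0 (3293 at an unadjusted limma p below 0.05), and this changed no call among the members, where Gstt1 had a limma adjusted p of 0.158. Leaving out single arrays gave between 0 and 25 calls: 0, 0, 1 and 3 without Irf2_AhcKO replicates 1 to 4 and 11, 0, 6 and 25 without control replicates 1 to 4. With the array median as the scale 9 features were higher and 11 lower, where the 75th percentile gave 14 higher and 11 lower. Without the slide term they were 14 and 5. Normexp gave 1 call among the related genes, Arsb at -0.82 (limma adjusted p = 0.0395). The enterocyte marker Fabp2 at -0.52 and the stem cell marker Gkn3 at -0.62 passed as well. The cause of these changes was not tested, except that a filter changes the number of features adjusted over and leaving out an array the number of samples. Dim probes limit Gsta4, Gsta2, Gsto2, Sult6b1, Sult6b2, Ugt1a6a and Ugt2b36, which were not well above background on every array.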
